A study of Mus musculus with 16 samples.

Results

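A set of 6 genes that act on thyroid hormone inside cells was followed in mouse adrenal glands: Thrb and Thra, which encode the nuclear thyroid hormone receptors, Crym, which encodes a cytosolic hormone-binding protein, Slc16a10, which encodes a hormone transporter, and Dio1 and Dio2, which encode deiodinases. They were 6 of the 54838 genes in the deposited count table, found there by Ensembl identifier, and were chosen by their read counts, with the levels and group differences in these same libraries in view. Their group differences are therefore given as a description, without p-values. The libraries come from bulk sequencing of messenger RNA in adrenals of 16 mice that were 4 weeks old and of mixed background. They formed 4 groups of 4 individual mice: female controls, females with a gain of function (GOF) of Rspo1, male controls and males with the same gain of function. The product of Rspo1, R-spondin 1, is secreted and makes cells more responsive to WNT. The promoter or recombinase behind the gain of function, and any allele that the controls also carry, are not given in the sources used here. The question named by the study is the dependence of adrenal gene expression on sex, with and without the gain of function.

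Thyroid hormone enters cells through membrane transporters, among them MCT10, and its prohormone form T4 is converted into the active form T3 by the deiodinases Dio1 and Dio2, while Dio3 inactivates both. T3 binds receptors that sit on DNA with retinoid X receptors, where corepressors hold target genes down without hormone and coactivators replace them with hormone. Crym encodes mu-crystallin, which binds T3 in the cytosol and is also a ketimine reductase. In the mouse adrenal, the receptor isoform TRβ1 is known from the inner cortex beside the X-zone, a transient inner layer that regresses at puberty in males and later in females.

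The deiodinases are selenoproteins: their messenger RNA holds a TGA codon that is read as selenocysteine, the active residue of the enzyme. The sequence around the codon of the active site is shown because it marks the family and shows how far its members differ from each other. The codon is in capitals, with 24 bases on each side, and the sequences come from GENCODE M21 coding transcripts on GRCm38. Dio2 has another annotated TGA codon further along, not shown.
Dio1: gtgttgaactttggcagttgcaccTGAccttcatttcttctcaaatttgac
Dio2: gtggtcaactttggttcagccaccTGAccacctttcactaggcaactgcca
Dio3: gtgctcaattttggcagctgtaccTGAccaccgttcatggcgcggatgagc
These are chr4:107297700-107297702 on the minus strand, chr12:90729823-90729825 on the minus strand and chr12:110279739-110279741 on the plus strand for the codons themselves. Over the 51 bases, Dio1 and Dio2 were identical at 28 positions (54.9%), Dio1 and Dio3 at 30 (58.8%) and Dio2 and Dio3 at 31 (60.8%).

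Library totals ran from 31275146 to 43003968 counts, and levels are given as CPM, the counts per 1e6 counts of a library scaled by the trimmed mean of M-values (TMM). Of the 6 genes, 5 were among the 18214 genes with enough counts to be tested, and Dio1 was not. Rspo1, the targeted gene, was at 3.20 to 48.3 CPM in the controls and at 353.7 to 971.6 CPM in the GOF libraries, and Xist and Ddx3y matched the labelled sex in all 16. Summed CPM of 6 genes shared by steroid-producing cells were 31420 to 48680 in all libraries, so the labelled tissue was represented throughout. Transcripts of 8 kidney tubule genes summed to 1065 CPM in female control 1 and 180.1 in female control 3, against at most 2.721 elsewhere. Transcripts of 7 liver genes summed to 8912 CPM in male control 2, against 169.3 to 1034 in the other controls and 20.6 to 90.67 in GOF libraries. Values without these 3 libraries are given beside the calls on named genes that were lost without them. The GOF calls of Me1 were not followed in that fit. Markers (8 genes) of the adrenal medulla summed to 4775 to 11460 CPM in controls and 197.5 to 883.4 in GOF libraries of both sexes, and those of the X-zone to 4910 to 7358 CPM in female controls and at most 3.248 in the other groups. Sums of 6 capsule genes were 634.9 to 2447 CPM in controls against 170.5 to 437.1 in GOF libraries, and those of 5 zona glomerulosa genes 772.1 to 1252 against 255.3 to 519.5. The part that these shifts in tissue content have in the differences below was not tested, and fewer cells of a type cannot be told apart from less RNA per cell in bulk libraries.

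**Figure D1:**
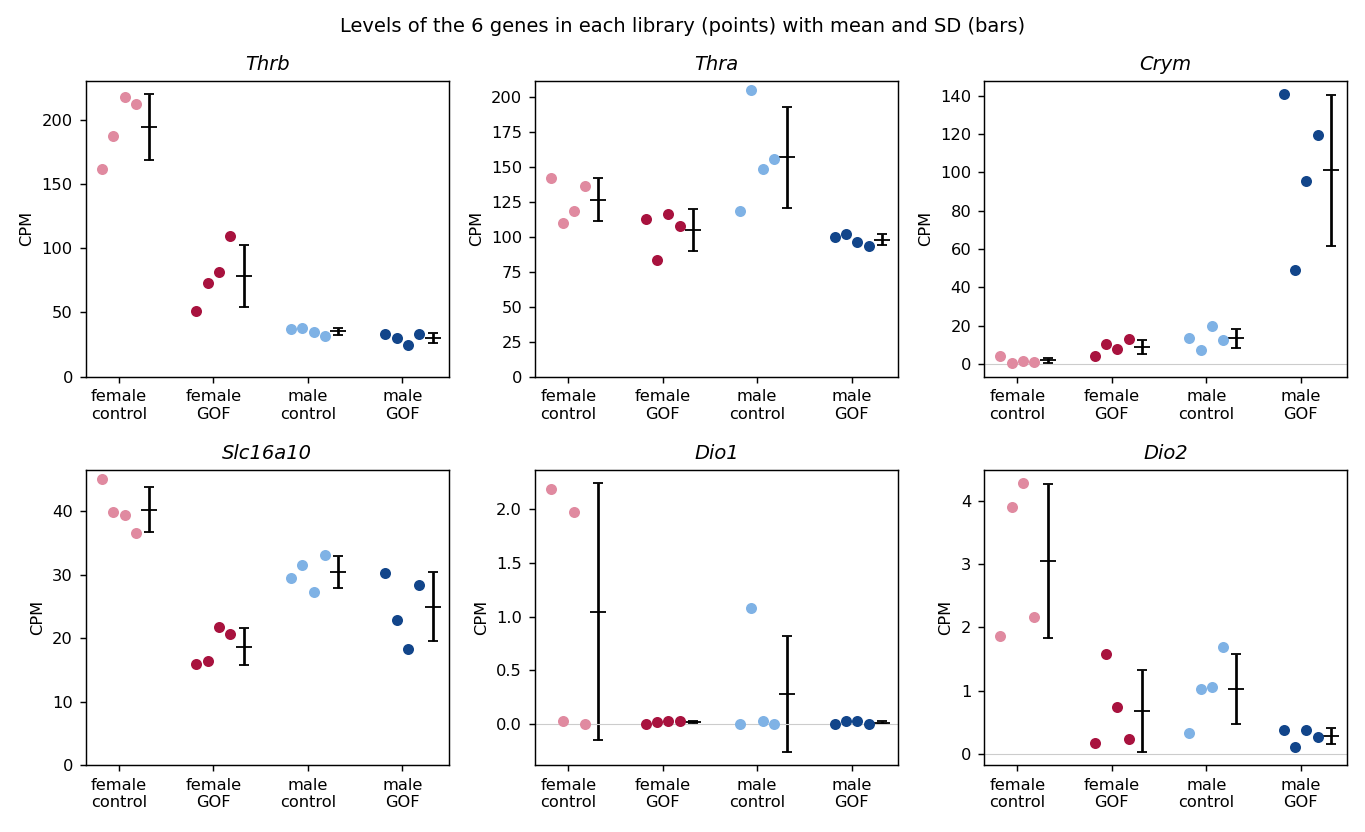
Levels of the 6 genes in CPM (vertical axes, linear) for each of 16 libraries (points) by group, with the mean and SD of 4 libraries as bars. Thrb falls into 3 levels, with female controls at 161 to 217 CPM, female GOF at 50.8 to 109 and both male groups at 25.02 to 37.9, while Crym is above 48 CPM in male GOF alone.

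Calls were made with edgeR's quasi-likelihood test on all 18214 genes, at a Benjamini-Hochberg adjusted p below 0.05. In females, 4 of the 5 tested genes passed this threshold for GOF against control: Crym was higher, and Thrb, Slc16a10 and Dio2 were lower. Over all genes tested, 39.6% passed in this comparison, 19.0% higher and 20.6% lower. In males 3 passed, with Crym higher and Thra and Dio2 lower, where 36.9% of all genes did, 15.2% higher and 21.8% lower. Males differed from females in 2 of the 5 among controls, with Crym higher and Thrb lower, where 23.4% of all genes passed, 13.5% higher and 9.89% lower. In GOF animals 3 of the 5 passed, with Crym and Slc16a10 higher in males and Thrb lower, where 29.6% of all genes did, 13.3% higher and 16.3% lower. The GOF difference itself differed between the sexes for Thrb and Slc16a10, both in the positive direction, 2 of 5 genes, where 4.21% of all genes passed, 1.59% positive and 2.61% negative. Ranges of the compared groups did not overlap for 4 of the 5 genes for GOF in females (37.8% of all genes), 2 for GOF in males (33.1%), 4 between control sexes (25.3%) and 2 between GOF sexes (29.1%). The members were proposed from these contrasts, so nothing is read from the shares, and the calls on members are a description. The alternatives given below refit the same libraries. They show how a call depends on the fit and are not independent support. The contrasts share libraries: each control group serves in both a GOF and a sex comparison.

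**Figure D2:**
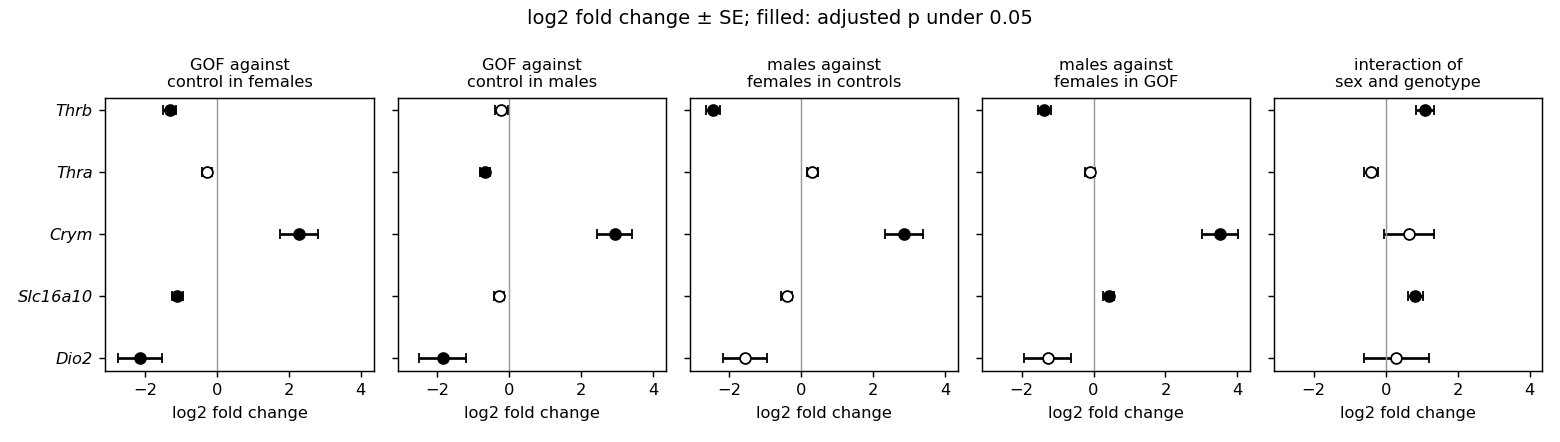
Log2 fold changes of the 5 tested genes (horizontal axes) with their SE, for 4 comparisons and the interaction of sex and genotype (males minus females). Filled points passed the threshold. Crym lies on the positive side in all 4 comparisons, and Thrb is between -1.31 and -2.46 wherever its point is filled in those 4.

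Thrb (ENSMUSG00000021779, protein coding, GRCm38 chr14:17660261-18038090, plus strand) encodes TRβ, the receptor known for the hormone's effects in liver and pituitary. Its level was 161, 187, 217 and 212 CPM in female controls 1 to 4, and 50.8, 73.3, 81.2 and 109 CPM in female GOF libraries 1 to 4. In male controls 1 to 4 it was 37.0, 37.9, 35.2 and 31.4 CPM, and in male GOF libraries 1 to 4 it was 33.2, 29.8, 25.02 and 33.5 CPM. Every female control was above every female GOF library, and every female GOF library was above every male library, whereas the male groups overlapped. The means were 194.6 ± 25.7 (SD, n = 4) CPM in female controls, 78.6 ± 24.1 in female GOF, 35.4 ± 2.90 in male controls and 30.4 ± 3.96 in male GOF.

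The log2 fold change of Thrb for GOF against control was -1.31 ± 0.178 (SE) in females, past the threshold, and -0.22 ± 0.178 in males, not past it. Between the sexes it was -2.46 ± 0.186 in controls and -1.37 ± 0.180 in GOF animals, both past the threshold. The GOF difference was 1.09 ± 0.250 higher in males than in females on the log2 scale, past the threshold. That call for the interaction was lost when any 1 of 5 libraries was left out, with values of 1.03 without female control 3, 1.04 without female control 4, 1.08 without male control 3, 1.03 without male control 4 and 1.07 without male GOF 4. It was also lost without the 3 libraries with kidney or liver transcripts, at 1.16 ± 0.298. The other 3 calls were kept in all 27 alternatives run. Labels number the animals, and with 4 ranges of these numbers as a covariate the difference between GOF sexes was -0.76, still past the threshold. Of the 4 ranges, 2 held females alone and 1 held males alone, so the sexes met in 1 range only. Its only females were female control 1 and female GOF 1, so sex differences with this covariate rest on comparisons with them. X-zone transcripts were also absent or nearly so in the 3 groups where Thrb was lower, and their part in the Thrb difference was not tested.

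RefSeq gives Thrb more than 1 start, and the deposited counts add all of its transcripts, so the difference cannot be assigned to one of them. The 250 bases before 2 of these starts are shown because the receptor is the member with the clearest steps between groups. They lie on the plus strand of GRCm38.p6 at chr14:17660710-17660959 and chr14:17981394-17981643. Capitals mark the motifs found.
Thrb, first start: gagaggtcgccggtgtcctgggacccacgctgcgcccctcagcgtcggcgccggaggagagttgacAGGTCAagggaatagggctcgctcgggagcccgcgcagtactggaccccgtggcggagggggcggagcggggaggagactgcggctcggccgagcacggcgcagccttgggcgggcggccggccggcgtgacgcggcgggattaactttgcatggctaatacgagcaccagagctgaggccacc
Thrb, second start: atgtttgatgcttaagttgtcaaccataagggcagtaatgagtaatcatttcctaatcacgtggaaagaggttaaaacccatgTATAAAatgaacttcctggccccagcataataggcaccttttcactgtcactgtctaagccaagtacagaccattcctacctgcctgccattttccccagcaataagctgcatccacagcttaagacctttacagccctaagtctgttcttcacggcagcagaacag
The 5 motifs, chosen after the data were seen, were searched on both strands: AGGTCA (the half-site of nuclear receptors), AAGGTCA (the core site of NR5A1, which holds the half-site within it), CTTTGAT (TCF/LEF), TGACGTCA (the cAMP response element) and TATAAA (the TATA box). The first window held AGGTCA with its first base 184 bases before the start, as 14.0% of 32851 windows of this length hold it. The second held TATAAA 167 bases before the start, a sequence found in 12.4% of windows. Neither held AAGGTCA or CTTTGAT, which occur in 4.08% and 3.21% of windows.

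Thra (ENSMUSG00000058756, chr11:98740638-98769006, plus strand) encodes TRα, the receptor known for the hormone's effects in heart and bone. It was at 142, 110, 118 and 136 CPM in female controls 1 to 4, and at 113, 83.0, 116 and 107 CPM in female GOF libraries 1 to 4. In male controls 1 to 4 it was at 118, 205, 148 and 155 CPM, and in male GOF libraries 1 to 4 at 99.8, 102, 96.1 and 93.0 CPM. Neighbouring groups in the order of means overlapped throughout. All 4 male GOF libraries were under all controls of both sexes, and all 4 female GOF libraries were under the male controls but not under the female controls. The log2 fold change for GOF against control was -0.68 ± 0.143 in males, past the threshold, and -0.27 ± 0.143 in females, not past it. The interaction was -0.41 ± 0.202 and did not pass. Male control 2, the library with liver transcripts, held the highest value. Without the 3 libraries the difference in males was -0.53 ± 0.126 and still past the threshold. Of its 4614 exonic bases, 263 (5.7%) lie in exons of Nr1d1 on the opposite strand, whose reads cannot be told apart there since strand use in counting is not given. Nr1d1 itself did not pass the threshold in any of the 5 contrasts.

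The balance of the receptors was compared per length. Thrb made up 44.1% ± 5.17 of the summed FPKM of Thra and Thrb in female controls, 27.7% ± 6.77 in female GOF, 10.7% ± 2.30 in male controls and 13.8% ± 1.69 in male GOF libraries. The ranges were 36.8% to 48.6%, 18.8% to 34.3%, 8.66% to 13.9% and 11.8% to 15.6%, so female controls stood above female GOF libraries and these above both male groups. The gene length behind the FPKM of Thra is a mean over many short annotated transcripts, which raises its FPKM, so the share is read between groups only.

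Crym (ENSMUSG00000030905, chr7:120186380-120202111, minus strand) encodes mu-crystallin, the T3-binding protein, and had the largest ratio of highest to lowest group mean among the 5 tested genes. It was at 3.96, 0.710, 1.63 and 0.910 CPM in female controls 1 to 4, and at 4.33, 10.6, 7.86 and 12.8 CPM in female GOF libraries 1 to 4. In male controls 1 to 4 it was at 13.6, 7.29, 19.8 and 12.51 CPM, and in male GOF libraries 1 to 4 at 140.7, 49.0, 95.7 and 119.6 CPM. Every male GOF library exceeded every other library, every female control was under every other library, and male controls overlapped female GOF libraries. The means were 1.80 ± 1.49, 8.88 ± 3.64, 13.3 ± 5.13 and 101 ± 39.4 CPM in the same order of groups.

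The log2 fold change of Crym for GOF against control was 2.28 ± 0.519 in females and 2.93 ± 0.494 in males, and that for males against females was 2.86 ± 0.524 in controls and 3.51 ± 0.508 in GOF animals. All 4 passed the threshold, while the interaction of 0.65 ± 0.690 did not. The female control values depend on 1 library: without female control 1 the difference was 3.03 in females and 3.61 between the sexes among controls. Female controls 1 and 3, those with kidney transcripts, held 3.96 and 1.63 CPM against 0.710 and 0.910 in the other 2. Without the 3 libraries with kidney or liver transcripts these differences were 3.44 ± 0.582 and 4.23 ± 0.603. The interaction then had the opposite sign, at -0.72 ± 0.676, and again did not pass. With the animal number ranges as a covariate the sex differences were 2.52 in controls and 3.21 in GOF animals and no longer passed. In that fit female control 1, with the highest Crym of its group, was the only female control in a range with males. The loss is therefore not read as an effect of the ranges.

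**Figure D3:**
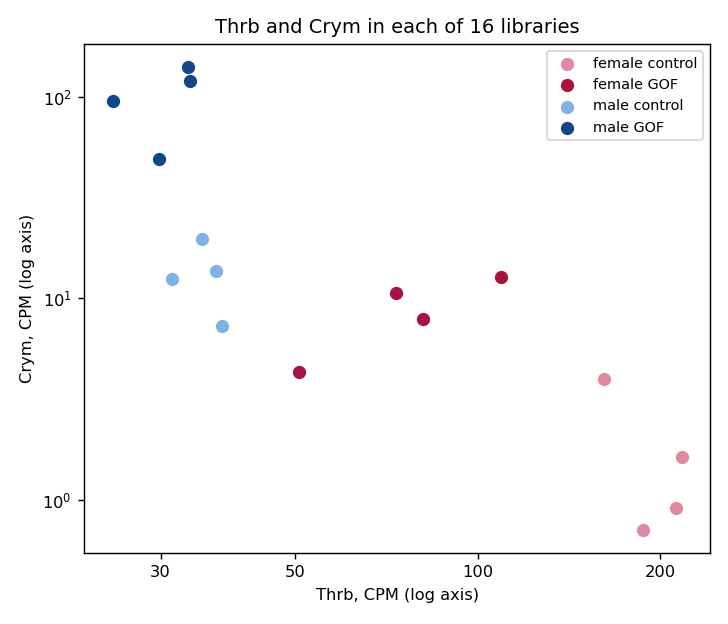
Thrb (horizontal) against Crym (vertical) in CPM on log axes, 1 point per library, coloured by group. The groups run from female controls, with the highest Thrb and lowest Crym, to male GOF libraries, with Crym at 49.0 to 140.7 CPM and Thrb at 25.02 to 33.5.

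Thrb and Crym ran in opposite directions over the groups. Over the 16 libraries the Pearson correlation of their log2 CPM was -0.83, and with group means subtracted it was 0.20. These libraries share their groups, so the first value describes the order of the groups and not variation between animals. For Crym and Dio2 the same values were -0.70 and 0.13, and for Thrb and Thra 0.04 and -0.05.

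Slc16a10 (ENSMUSG00000019838, chr10:40033532-40142258, minus strand) encodes MCT10, which carries thyroid hormone and aromatic amino acids. It was at 45.1, 39.9, 39.4 and 36.7 CPM in female controls 1 to 4, and at 15.99, 16.4, 21.8 and 20.7 CPM in female GOF libraries 1 to 4. In male controls 1 to 4 it was at 29.6, 31.5, 27.4 and 33.2 CPM, and in male GOF libraries 1 to 4 at 30.35, 22.9, 18.3 and 28.4 CPM. Female controls were above all other libraries, and female GOF libraries were below all controls of both sexes, with male GOF libraries overlapping both neighbours in the order.

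The log2 fold change of Slc16a10 for GOF against control was -1.10 ± 0.147 in females, past the threshold in the main test and in all 27 alternatives, and -0.28 ± 0.145 in males, not past it. The interaction of 0.82 ± 0.206 passed, but the call held for only 4 of the 16 fits that left out 1 library, with female GOF 3, male control 4, male GOF 2 or male GOF 3 as the one left out, over values of 0.73 to 0.97. The higher level in GOF males than in GOF females, 0.42 ± 0.146, passed in 6 of those 16 fits (female control 1, female GOF 3, female GOF 4, male control 2, male GOF 2 and male GOF 3 being those left out) over values of 0.32 to 0.55. Neither of these calls was kept without the 3 libraries with other tissue, at 0.76 ± 0.255 and 0.41 ± 0.157, or with the animal number ranges as a covariate, at 0.88 and 0.48.

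Dio2 (ENSMUSG00000007682, chr12:90724552-90738438, minus strand) encodes the deiodinase that makes T3 inside cells and is known from brown fat and pituitary. It was low throughout, at 1.86, 3.91, 4.28 and 2.17 CPM in female controls 1 to 4 (69 to 139 counts) and at 0.175, 1.58, 0.747 and 0.229 CPM in female GOF libraries 1 to 4 (6 to 69 counts). In male controls 1 to 4 it was at 0.339, 1.024, 1.05 and 1.69 CPM (11 to 62 counts), and in male GOF libraries 1 to 4 at 0.371, 0.114, 0.376 and 0.272 CPM (4 to 15 counts). Female controls were above all other libraries, and the 3 other groups overlapped.

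The log2 fold change of Dio2 for GOF against control was -2.14 ± 0.622 in females and -1.84 ± 0.653 in males, both past the threshold, and the interaction of 0.30 ± 0.910 did not pass. In females the value was -3.03 without female GOF 2, the GOF library with the highest level. In males the difference no longer passed in 7 of 16 fits with 1 library left out (without male control 2, 3 or 4, or without any of the 4 male GOF libraries), over values of -2.13 to -1.49. Without the 3 libraries with other tissue neither call was kept, with differences of -2.13 ± 0.742 and -1.84 ± 0.731. The call in males was also lost with no filter on low counts (-1.80) and with limma on log2(FPKM + 1) without a filter, where the values were -0.42 in females, past the threshold, and -0.15 in males, on a scale that understates changes of low genes. Markers of brown fat (Ucp1, Cidea, Elovl3 and Cox7a1) summed to 102 to 244 CPM in the female and 78.8 to 487 CPM in the male controls, against 11.0 to 48.7 in the female and 15.5 to 31.9 in the male GOF libraries. Their median was 343.8 CPM in male and 123.7 in female controls. Their part in the difference was not tested.

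Dio2 shares 100 exonic bases (1.7%) with Gm26512, a noncoding transcript that starts on the opposite strand. The 250 bases before its RefSeq start are shown because 2 of the 5 motifs fell there. They lie on the minus strand at chr12:90739039-90739288 of GRCm38.p6.
Dio2, start: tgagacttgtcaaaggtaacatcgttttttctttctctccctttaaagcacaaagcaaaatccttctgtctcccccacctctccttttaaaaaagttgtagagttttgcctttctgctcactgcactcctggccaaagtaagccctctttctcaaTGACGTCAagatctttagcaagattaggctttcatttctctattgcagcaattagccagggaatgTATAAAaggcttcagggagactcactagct
The window held TGACGTCA 95 bases before the start, as 1.55% of all windows do, and TATAAA 30 bases before it. The windows of Slc16a10 and Dio1 held none of the 5 motifs.

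Dio1 (ENSMUSG00000034785, chr4:107291465-107307169, minus strand) encodes the deiodinase known from liver, kidney and thyroid. It had 81, 1, 64 and 0 counts in female controls 1 to 4, and 0, 1, 1 and 1 in female GOF libraries 1 to 4. In male controls 1 to 4 it had 0, 37, 1 and 0 counts, and in male GOF libraries 1 to 4 it had 0, 1, 1 and 0. Only 3 libraries were above the floor of 3 counts, and these were the 2 with kidney transcripts and the 1 with liver transcripts. In the 13 others it had at most 1 count, and the 6 libraries with 0 counts allow up to 0.0795 to 0.0923 CPM, by counting error alone. The thyroid genes Tg and Slc5a5 summed to at most 2.721 CPM in any library. No fold change is given for Dio1, and adrenal expression of it was not detectable at this depth in the 13 libraries.

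**Figure D4:**
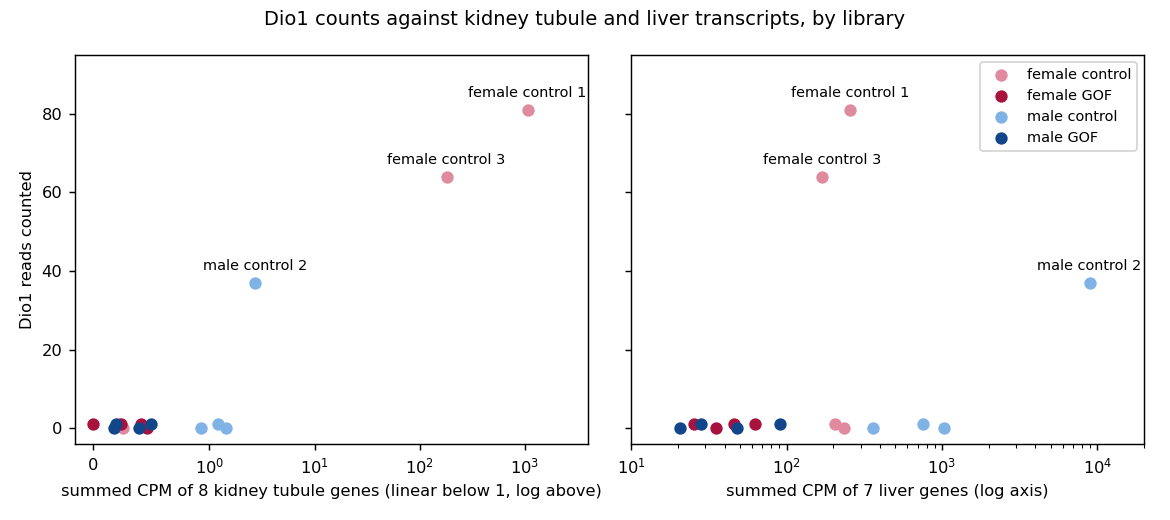
Dio1 reads (vertical, linear) against the summed CPM of 8 kidney tubule genes (left) and 7 liver genes (right) in 16 libraries. The 3 libraries with 37 to 81 Dio1 reads are the 2 with the highest kidney sums and the 1 with the highest liver sum.

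The patterns of the 5 tested genes were compared with those of 14067 genes by Pearson correlation of log2 CPM over the 16 libraries, as a description. Nearest to Thrb were Top1mt (0.98), the mitochondrial topoisomerase, Lipn (0.97), Lactbl1 (0.97), Dpy19l1 (0.97) and Acadsb (0.96). Top1mt was at 34.9, 23.7, 12.4 and 13.5 CPM in female controls, female GOF, male controls and male GOF, and was the 1 gene of these 5 that kept a value of 0.90 after group means were subtracted. Nearest to Crym were Acvr1 (0.96), an activin and BMP receptor, Serinc5 (0.95), Prss35 (0.95), Cad (0.94) and Fnbp1l (0.94). Acvr1 went from 41.9 CPM in female controls over 91.6 and 139 to 368 in male GOF. Nearest to Thra were Ptch1, Inpp1, Akap7 and Ppara (all 0.92) and S100a6 (0.91), and nearest to Slc16a10 were Slc17a5 (0.93), Cutc (0.92), Pank1, Fnip1 and Ctsl (all 0.91). Nearest to Dio2 were Abcd3 (0.93), Ulk1, Gpat4, Cdc34 and St3gal1. The libraries share their groups and tissue content, so these values have no test.

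Around the members, a list of 44 other genes of the pathway is reported, of which 41 were tested. This list, like the others below, was chosen with earlier results of these data known. Its shares, medians and adjusted p-values are therefore a description and no test of the pathway. For GOF against control, 21 of the 41 (51.2%) passed in females, 4 higher and 17 lower, where 39.6% of all genes passed, 19.0% higher and 20.6% lower. In males 20 (48.8%) passed, 4 higher and 16 lower, where 36.9% of all genes did, 15.2% higher and 21.8% lower. Their median log2 fold changes were -0.49 and -0.35, against 0.05 and 0.01 over all genes tested. Between the sexes 11 (26.8%) passed in controls, 5 higher and 6 lower in males, and 9 (22%) in GOF animals, 4 higher and 5 lower. These shares lay near or under those of all genes, 23.4% and 29.6%. With the animal number ranges as a covariate the counts were 2 and 3, where those of all genes fell from 4267 to 1311 and from 5394 to 1336. Without the 3 libraries with other tissue the counts were 15 in females, 14 in males, 3 between control sexes and 10 between GOF sexes. Counts of all genes fell too, from 7217 to 4554 in females and from 4267 to 1648 between control sexes. Nothing about the pathway is therefore read from its lower counts. The count between control sexes was 6 without female control 1 or 3 and 7 without female control 2 or 4, and that between GOF sexes was 5 without female GOF 4. The interaction passed for 2 genes, Dio3 and Me1 (4.88%, against 4.21% of all genes). It passed for 1 gene without the 3 libraries, or with female control 2, 3 or 4, female GOF 3 or 4, male control 2 or male GOF 3 or 4 left out, and for 4 without male control 1.

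**Figure D5:**
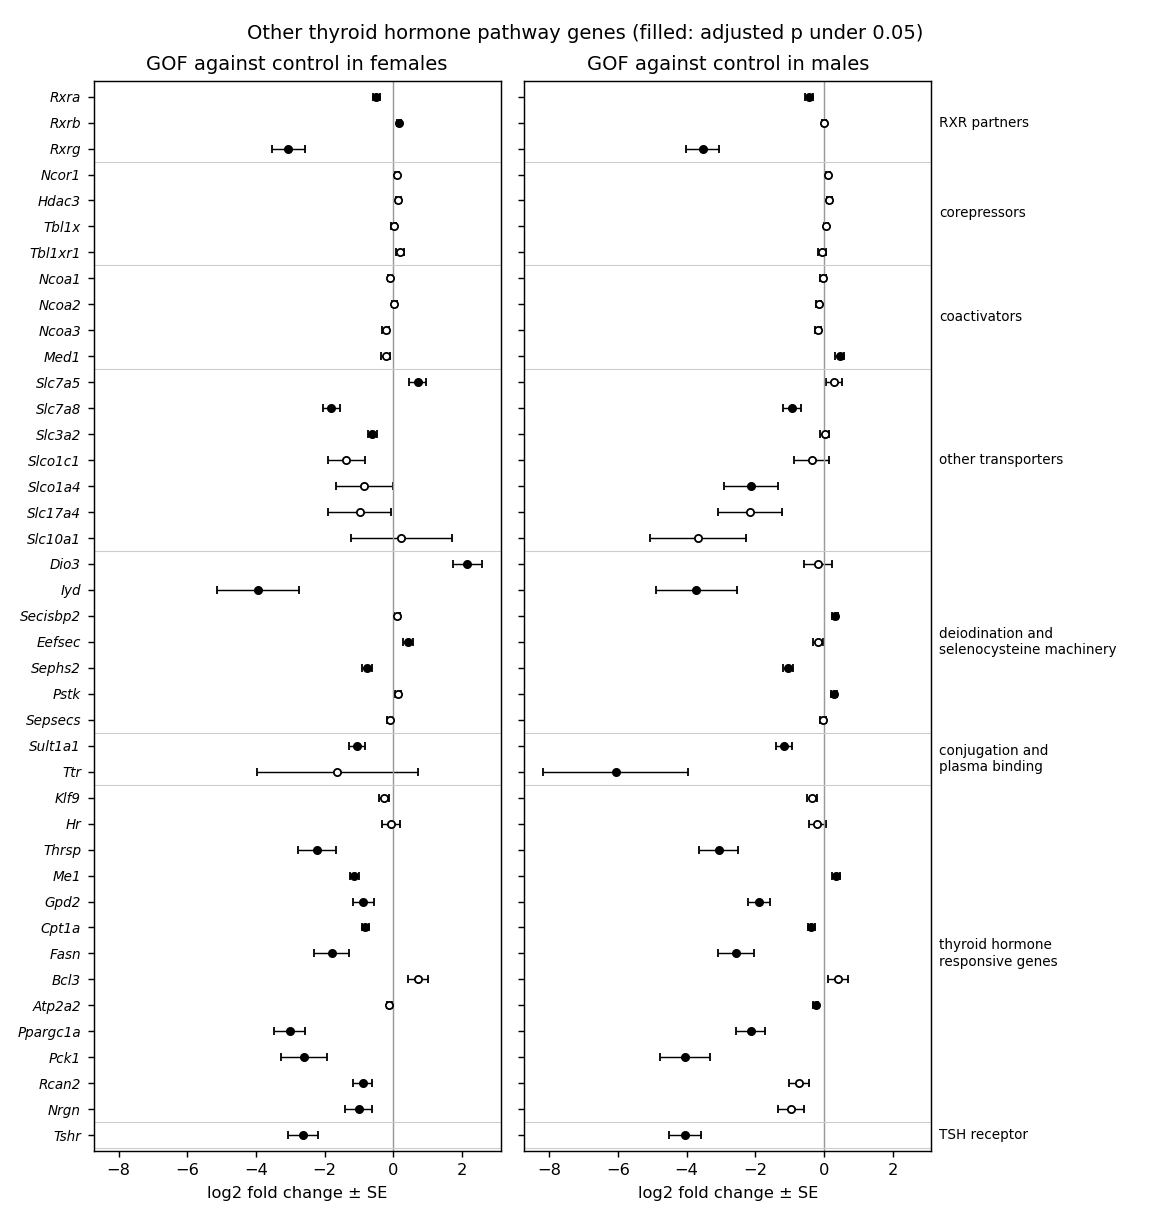
Log2 fold changes with SE (horizontal) of the 41 tested pathway genes for GOF against control in females (left) and males (right), by role. Filled points passed the threshold, and these lie mostly to the left of 0 in both panels: 17 of 21 in females and 16 of 20 in males.

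Among other transporters, 3 of 7 tested passed in females, 1 higher and 2 lower, and 2 in males, both lower (42.9% and 28.6%, near or under the 39.6% and 36.9% of all genes). Slc7a8, which encodes the amino acid transporter LAT2, fell in both sexes, with log2 fold changes of -1.80 ± 0.260 in females (edgeR adjusted p = 0.000105) and -0.93 ± 0.256 in males (adjusted p = 0.0108). Its partner chain Slc3a2 passed in females at -0.61 ± 0.130 (edgeR adjusted p = 0.00194), with 0.02 ± 0.130 in males, not past the threshold, and an interaction of 0.63 ± 0.184 that did not pass (adjusted p = 0.0696). Slc7a5, which encodes the amino acid transporter LAT1, passed as higher in females, at 0.71 ± 0.243 (edgeR adjusted p = 0.0314), with 0.29 ± 0.242 in males, not past the threshold. That call was lost in 8 of 16 fits with 1 library left out (female GOF 1, 2 or 4, any of the 4 female controls, or male GOF 1), over values of 0.55 to 0.77, and without the 3 libraries with other tissue (0.69). The organic anion transporter gene Slco1a4 was the other that passed in males, at -2.13 ± 0.782 (edgeR adjusted p = 0.0443). With 1 library left out it passed in 4 of 16 fits (female GOF 4 or male control 1, 3 or 4), and it was at -0.06 without male control 2 and without the 3 libraries.

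Among the genes of deiodination and of selenocysteine insertion, 4 of 7 passed in each sex (57.1%, against 39.6% of all genes in females and 36.9% in males), 2 in each direction. Dio3, the inactivating enzyme, rose in females from 1.49 ± 0.367 to 6.69 ± 2.44 CPM, by 2.16 ± 0.430 on the log2 scale (edgeR adjusted p = 0.00116), and was at 1.6 to 4.18 CPM in male controls and 1.46 to 4.74 CPM in male GOF. Its interaction of -2.33 ± 0.592 passed (edgeR adjusted p = 0.0391) but held in only 5 of the 16 fits that left out 1 library (female control 1, female GOF 2, male control 3, male control 4 or male GOF 2), over values of -2.87 to -2.04, and not without the 3 libraries (-2.50). Sephs2, which makes the selenium donor, fell in both sexes, with log2 fold changes of -0.77 ± 0.145 in females (edgeR adjusted p = 0.000764) and -1.04 ± 0.146 in males (adjusted p = 6.12e-05). Iyd, which recovers iodide, also passed as lower in both sexes, but neither call held in every fit. It did not pass without female control 1 (-2.14) or the 3 libraries (-0.98) in females, and in males without male control 2 (-2.03), male GOF 2 (-3.73), male GOF 3 (-3.44) or male GOF 4 (-3.75). Eefsec, the elongation factor for selenocysteine, passed as higher in females, at 0.43 ± 0.154 (edgeR adjusted p = 0.0354), a call lost in 9 of 16 fits with 1 library left out (female GOF 3 or 4, female control 2, 3 or 4, or any of the 4 male GOF libraries). Secisbp2, which binds the insertion element in selenoprotein messages, was higher in GOF males, at 0.33 ± 0.0907 (edgeR adjusted p = 0.0116), but not past the threshold without male GOF 3 (0.26). Pstk, a kinase that acts on the selenocysteine tRNA, was also higher in GOF males, at 0.29 ± 0.0882 (edgeR adjusted p = 0.0186), and lost the call without male GOF 2 (0.25), male control 4 (0.25) or the 3 libraries (0.30).

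The receptor partners differed among themselves. Rxrg, a retinoid X receptor, was at 2.13 ± 0.929 CPM in female controls against 0.250 ± 0.125 in female GOF (log2 fold change -3.06 ± 0.486, edgeR adjusted p = 0.000202). In males it was at 4.09 ± 1.63 CPM in controls against 0.347 ± 0.166 in GOF (-3.54 ± 0.484, edgeR adjusted p = 5.03e-05). Rxra fell in both sexes, at -0.49 ± 0.109 in females (edgeR adjusted p = 0.00262) and -0.44 ± 0.109 in males (adjusted p = 0.00555). Rxrb passed in females, at 0.16 ± 0.0585, but not in 12 of the 16 fits with 1 library left out, nor without the 3 libraries with other tissue (0.13). In males it was at -0.01 ± 0.0585, not past the threshold, and the interaction of -0.17 ± 0.0827 did not pass. Of 4 corepressor genes (Ncor1, Hdac3, Tbl1x and Tbl1xr1), 0 passed for GOF in either sex by edgeR, where 39.6% of all genes passed in females and 36.9% in males. In each sex 1 of them had an unadjusted p under 0.05. DESeq2 called 0 of them in females and 2 in males. Over all 27 alternatives, Ncor1 and Hdac3 each gained a call in 6 in males and in 2 in females. Of the 4 coactivator genes (Ncoa1, Ncoa2, Ncoa3 and Med1), 0 passed in females and 1 in males (25%), under the 39.6% and 36.9% of all genes. This was Med1, at 0.46 ± 0.135 (edgeR adjusted p = 0.0149). It lost the call without male GOF 3 (0.39), male GOF 4 (0.38) or male control 2 (0.37), and without the 3 libraries with other tissue (0.37). Between control sexes 2 of the 4 passed (50%, against 23.4% of all genes), and between GOF sexes also 2 (against 29.6%), 1 in each direction. Med1 was lower in male than in female controls, at -1.06 to -0.87 over 27 alternatives.

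The list of 13 genes known to respond to thyroid hormone in liver, fat or brain was tested in full, and 9 passed as lower in GOF females and 7 as lower and 1 as higher in GOF males. Of all genes, 20.6% passed as lower in females, and 21.8% as lower and 15.2% as higher in males. Pck1, of glucose synthesis, had 232.1 ± 52.3 CPM in female controls and 38.2 ± 36.2 in female GOF (log2 fold change -2.60 ± 0.676, edgeR adjusted p = 0.00753). In males it had 306.5 ± 189.8 CPM in controls and 18.5 ± 9.06 in GOF (-4.05 ± 0.723, edgeR adjusted p = 0.000585). The female value was -3.40 without female GOF 2. Thrsp, a lipid synthesis gene named for its response to the hormone, fell, at -2.23 ± 0.558 in females (edgeR adjusted p = 0.00601) and -3.07 ± 0.577 in males (adjusted p = 0.000892). Fasn, fatty acid synthase, fell, at -1.79 ± 0.512 in females (edgeR adjusted p = 0.0127) and -2.56 ± 0.526 in males (adjusted p = 0.0017). Ppargc1a, a coactivator of mitochondrial genes, fell, at -3.02 ± 0.449 in females (edgeR adjusted p = 0.000121) and -2.14 ± 0.430 in males (adjusted p = 0.0013), and was at -2.27 in females without female control 1. Without the 3 libraries with other tissue, the female differences of Pck1 (-2.49), Thrsp (-1.87) and Fasn (-1.25) were no longer past the threshold, and all 3 remained past it in males.

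These lipid genes are also abundant in fat cells. Summed CPM of 5 adipocyte genes was 772.6 to 1208 in the female and 1038 to 2451 in the male controls, against 327.6 to 527.3 in the female and 281.1 to 367.1 in the male GOF libraries, and its part in the differences was not tested. Klf9 and Hr, direct receptor targets in brain, did not pass in any of the 5 contrasts by edgeR (1 of the 5 for Klf9, GOF in males, at an unadjusted p of 0.0216), with log2 fold changes for GOF of -0.27 ± 0.136 and -0.07 ± 0.256 in females and -0.35 ± 0.136 and -0.19 ± 0.256 in males. Me1, malic enzyme, fell in GOF females, to 1026 ± 63.2 CPM against 2248 ± 100.7 in controls (edgeR adjusted p = 1.51e-05). In GOF males it was higher, at 2644 ± 513.2 CPM against 2071 ± 290.5 in controls (edgeR adjusted p = 0.0436), with overlapping ranges. Neither GOF call of Me1 was followed through the alternatives. The interaction for Me1 was 1.48 ± 0.183 (edgeR adjusted p = 0.000605). Among the 13, males and females differed in 1 gene in controls (Cpt1a) and 1 gene in GOF animals (Me1), 7.69% in each case, against 23.4% and 29.6% of all genes. Cpt1a was lower in male than in female controls, at -0.47 ± 0.107, and lost the call without the 3 libraries with other tissue (-0.50).

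Tshr, the receptor of thyrotropin, was lower in GOF females (0.953 ± 0.537 CPM, against 5.90 ± 0.726 in controls) and in GOF males (0.558 ± 0.258 CPM, against 9.30 ± 3.87), with log2 fold changes of -2.62 ± 0.439 (edgeR adjusted p = 0.000317) and -4.05 ± 0.470 (adjusted p = 1.19e-05). Sult1a1, a sulfotransferase that can act on the hormone, fell, at -1.06 ± 0.242 in females (edgeR adjusted p = 0.0032) and -1.16 ± 0.241 in males (adjusted p = 0.00173). The plasma carrier gene Ttr passed as lower in GOF males, at -6.07 ± 2.12, but was at 290.9 CPM in male control 2 and at most 0.958 CPM in the 3 other male controls. Without male control 2 its difference was 1.02 and did not pass.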

How the data were processed

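The members, the gene lists and the motifs were chosen with earlier results of these data known. The labels' protocols name a NEBNext Ultra kit, and the submitters' processing notes list Bowtie2 2.2.3, TopHat2 2.0.12, HTSeq 0.6.1 and DESeq 1.18.0. Genome build, annotation and strand setting are not given in the sources used here. In the deposited table, counts are unnormalized whole reads for each Ensembl gene, and the FPKM deposited by the authors are scaled to gene length and library total. The implied gene length was within 1 base of the mean transcript length in GENCODE M21 for 97.8% of 34180 genes, so symbols and GRCm38 coordinates come from M21, which holds 54809 of the 54838 identifiers. Promoters are RefSeq's on GRCm38.p6, whose table matched 4 of the 6 members.

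Groups came from the labels, and 34196 genes had a count. The filterByExpr filter of edgeR 4.0.16 (R 4.3.3) kept 18214 genes. TMM factors were 0.945 to 1.1. One robust quasi-likelihood model was fitted to all 16 libraries with a mean per group, with Benjamini-Hochberg adjustment over the 18214 genes. Dio1 had too few counts for the filter. FPKM served for the receptor share and for limma 3.58.1 (pseudocounts of 1 and 0.1), and DESeq2 1.42.0 was another alternative. The labels number each library as another mouse. Scripts were tested on simulated data. Named were the 6 members, lists of 5 or fewer genes and, in longer lists, up to 4 genes past the threshold by size of change with at least 1 CPM in a group, and the 5 genes nearest to each member by Pearson correlation of log2 CPM (prior count 2). Some genes were left out of the lists, their counts and their sums and are not reported here. Klf9 and Hr were named outside this rule, after their values were seen. Intervals and floors cover counting error only.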

Additional observations from a re-analysis of the deposited data

Results flagged for a closer look

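In the interaction test of edgeR (Benjamini-Hochberg adjusted p below 0.05), the GOF difference itself differed between males and females for 2 of the 5 members tested and 2 of the 41 pathway genes. The members were proposed from these contrasts, so nothing is read from their count. The difference, males minus females on the log2 scale, was 1.09 for Thrb, 0.82 for Slc16a10, -2.33 for Dio3 and 1.48 for Me1. With 1 library left out the call was lost in 5 of 16 fits for Thrb, 12 for Slc16a10 and 11 for Dio3.

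In 110 groups of 4 libraries checked by Dixon's criterion, 1 library stood apart in 10, and chance alone gives about 1 in 20. Male control 2, the library with liver transcripts, stood above the other male controls for Dio1 (1.083 CPM), Iyd (6.028), Ttr (290.9) and Slc10a1 (24.55). Female control 1, with kidney transcripts, stood above the other female controls for Ppargc1a (11.37 CPM). Male GOF 2 stood apart within its group for Dio3 (4.744 CPM) and Tshr (0.1715). Thrsp was high in male GOF 4 (67.06 CPM), Ttr in male GOF 3 (3.606) and Slc16a14 low in female control 2 (1.13).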

How the results depend on the processing

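Across 27 alternatives, 593 of 655 member values kept their side of the threshold, 48 lost a call and 14 gained one. No called member value turned sign. Of those not past the threshold 3 did: the interaction of Crym without female control 1 (-0.10) and without the 3 libraries with kidney or liver transcripts (-0.72), and that of Dio2 without female GOF 1 (-0.01). For the other named genes, 112 of 3727 turned sign, 108 of them on values not past the threshold and 4 on called ones: Ttr in GOF males (1.02 without male control 2, 1.01 without the 3 libraries), and Ttr (-0.66) and Slc10a1 (-0.21) between control sexes without male control 2. With 1 library left out these 3 ran from -8.38 to 1.02, -0.66 to 7.74 and -0.21 to 5.09. Male control 2 held 290.9 CPM of Ttr and 24.55 of Slc10a1, against at most 0.9583 and 0.2164 in the other male controls. Some fits held fewer libraries or genes, and the cause of the sign changes was not tested.

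The interaction passed for 766 genes and 2 pathway genes. Alternatives gave 408 and 1 with no filter, 442 and 1 with animal number ranges, 407 and 1 with limma on FPKM unfiltered, 1432 and 5 with DESeq2, and 175 and 1 without the 3 libraries. Upper-quartile factors or at least 10 counts in every library gave 4 pathway genes. Leaving out 1 library gave 377 to 953 genes and 1 to 4 pathway genes.

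Between control sexes, 4267 genes and 11 pathway genes became 1311 and 2 with number ranges, and 1648 and 3 without the 3 libraries. Only the groups compared, no filter, or limma on FPKM unfiltered gave 7 pathway genes, and 1 library left out gave 2650 to 4881 genes and 6 to 13. Between GOF sexes, 5394 and 9 became 1336 and 3 with number ranges, and 5 to 10 pathway genes with 1 library left out. GOF in females gave 7217 genes, and 4554 without the 3 libraries. The median log2 fold change of all genes for GOF in males was 0.007, and 0.119 with limma on log2(FPKM + 0.1).

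No paired analysis was possible because replicate numbers only follow the order of the samples. Among the tested members, Dio2 rests on the fewest counts, 4 to 15 in male GOF and 6 to 69 in female GOF libraries.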

Other observations

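Of 10 other tested members of the monocarboxylate transporter family of Slc16a10, 4 (40%) passed for GOF in each sex, close to the 39.6% of all genes in females and 36.9% in males: 1 higher and 3 lower in females and 2 in each direction in males. Slc16a1, the lactate transporter MCT1, was lower in GOF females, with 14.1 ± 2.83 CPM against 41.3 ± 6.002 in controls (edgeR adjusted p = 6.08e-05), and in GOF males, with 12.1 ± 1.68 CPM against 59.0 ± 18.2 (adjusted p = 2.22e-06). Slc16a7, which encodes MCT2, fell, with log2 fold changes of -1.53 ± 0.395 in females (edgeR adjusted p = 0.00691) and -1.69 ± 0.399 in males (adjusted p = 0.00421). Slc16a14 rose in GOF females, to 13.5 ± 7.20 CPM against 2.46 ± 0.890 (edgeR adjusted p = 0.000552), and in GOF males, to 5.46 ± 2.14 CPM against 1.56 ± 0.222 (adjusted p = 0.005). Slc16a12 fell in females, at -4.07 ± 1.11 (edgeR adjusted p = 0.00964), and was at -2.55 without female control 1, which held kidney transcripts, and at -1.19, not past the threshold, without the 3 libraries with other tissue. Slc16a6 passed as higher in GOF males, at 0.61 ± 0.221 (edgeR adjusted p = 0.0429), but lost the call in 14 of 16 fits with 1 library left out (all but male GOF 2 and male control 4), being at 0.33 without male GOF 1 and 0.46 without male control 1, and without the 3 libraries (0.61). Between males and females in controls, 0 of the 10 passed in edgeR, where 23.4% of all genes did, and 1 had an unadjusted p under 0.05. Between GOF sexes 3 of the 10 passed (30%, against 29.6% of all genes): Slc16a9 (1.59 ± 0.304) and Slc16a6 (0.72 ± 0.222) were higher in males, and Slc16a14 (-1.31 ± 0.423) was lower. Slc16a6 lost its call without female GOF 1 (0.70), female GOF 3 (0.72) or male GOF 1 (0.47), and Slc16a14 without female GOF 3 (-1.11), female GOF 4 (-1.03), male GOF 1 (-1.30) or male GOF 3 (-1.05). Over all 27 alternatives the call was lost in 1 for Slc16a9, 4 for Slc16a6 and 8 for Slc16a14.

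Nr1d2 and Rarb lie near Thrb, and Nr1d1, Med24 and Rara near Thra. Nr1d2, a clock gene, rose in GOF females from 95.9 ± 11.9 to 154.1 ± 28.1 CPM (edgeR adjusted p = 0.00764), where Thrb was lower. It was lower in GOF males than in GOF females, at -1.11 ± 0.181 (edgeR adjusted p = 0.000415). Rarb did not pass in females (-0.52 ± 0.270), and Rara was higher in males than in females among controls, by 0.53 ± 0.115 (edgeR adjusted p = 0.00421), and among GOF animals, by 0.40 ± 0.115 (adjusted p = 0.0169), a call lost without male GOF 1 (0.32). Over all 27 alternatives Rara lost its call in 1 among controls and in 2 among GOF animals. Nr1d1 and Med24 passed in 0 of the 5 contrasts by edgeR, and each had 1 unadjusted p under 0.05: 0.0252 for Nr1d1 between GOF sexes and 0.0355 for Med24 for GOF in females.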
